A study of Mus musculus with 6 samples.

Results

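The 9 receptors described here read small extracellular ligands. Their RNA was measured in mouse Th17 cells of a control group and of a knockout (KO) group for RTF1. They are encoded by the leukotriene receptor gene Cysltr1, the prostaglandin receptor genes Ptger2, Ptger4 and Ptgir and the purine receptor genes Adora2a and P2rx7. The others are the oxysterol receptor gene Gpr183 and the lysophospholipid receptor genes S1pr4 and P2ry10. No adrenergic receptor is among the 9. These 9 genes, of 31017 in the table, were chosen by symbol with the differences between KO and control in the same 6 libraries already known. Their fold changes are therefore given as a description, without p-values, and support nothing further. The cells were helper T cells differentiated to the Th17 state in culture, named for the interleukin 17 they secrete, and both groups shared that treatment. The control group (labelled genotype WT) and the RTF1-deficient group (labelled genotype KO) each had 3 libraries of total RNA. RTF1 binds elongating RNA polymerase II and promotes ubiquitination of histone H2B. How the gene was removed, the age and strain of the animals, and whether the replicates came from separate animals are not given in the sources used here, so the spread between replicates may be partly technical.

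All of the receptors except P2rx7 are G protein-coupled. The prostaglandin E2 receptors EP2 (Ptger2) and EP4 (Ptger4), the prostacyclin receptor (Ptgir) and the adenosine receptor encoded by Adora2a couple to the stimulatory G protein and raise cyclic AMP, which dampens T cell receptor signalling. In mouse Th17 biology prostaglandin E2 acting through EP2 and EP4 is also known to favour the lineage together with interleukin 23. Gpr183 and S1pr4 couple to inhibitory G proteins and take part in positioning and trafficking of lymphocytes. P2rx7 encodes an ion channel opened by extracellular ATP, which in mouse T cells is also triggered by ADP-ribosylation from extracellular NAD.

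Total counts per library ranged from 16489813 to 51271226, and 14268 genes passed the filter on low counts. Rtf1 held 88.3 to 94.0 CPM (counts scaled by library size with TMM factors) in control and 26.2 to 45.3 CPM in KO, so the labels match the targeted gene and some transcript remained. T cell markers were present in every library (7 markers summing to 1717 to 2289 CPM in control and 1555 to 2086 CPM in KO), as were the Th17 markers. The T cell sum hid opposite moves, with 2 markers called higher and 1 lower. On average Cd4 fell from 486 to 254 CPM, while Cd3e rose from 199 to 326 CPM and Cd3g from 151 to 250 CPM. The 6 Th17 markers summed to 1895 to 2642 CPM in control and 538 to 1252 CPM in KO. Of these, 5 were called lower and 1, Il1r1, higher. Over all tested genes 23.2% were called higher and 22.9% lower. Myeloid markers, of which 7 were in the table, summed to 2.21 to 4.89 CPM in control and 23.5 to 32.8 CPM in KO. That sum was carried by Cd68 (3.19 and 20.0 CPM on average) and Mpeg1 (0.134 and 5.71 CPM). Lyz2 (0.045 and 0.816 CPM), Fcer1g (0.109 and 0.810 CPM) and Cybb (0.051 and 0.198 CPM) were also higher on average in KO. Itgam and Adgre1 stayed at or under 0.134 CPM in each library. Of the 7 myeloid markers, 3 were called higher and 0 lower. Itgam (0 to 3 counts per library), Adgre1 (0 to 5) and Cybb (0 to 13) held too few counts for a call to be likely. B cell markers summed to 1.24 to 3.09 CPM in control and 1.76 to 2.66 CPM in KO, mast cell and basophil markers to 2.92 to 4.15 and 4.27 to 6.64 CPM, and platelet markers, of which Gp1ba and Itga2b held most counts, to 2.15 to 3.40 and 6.15 to 11.1 CPM. CD8 and NK markers summed to 6.93 to 10.5 and 6.57 to 11.8 CPM, with Ncr1 and Klrb1c at 0 counts throughout. Cd8b1 held most of that sum (7.91 CPM on average in control and 6.42 CPM in KO), while Eomes rose from 0.099 to 1.55 CPM. Of these 6 markers 1 was called higher and 0 lower, but Ncr1, Klrb1c and Klra8 (0 to 3 counts per library) could hardly be called. Erythroid markers reached at most 2.92 CPM and fibroblast markers at most 4.30 CPM. The part of these cells in the values below was not tested. Replicate 3 of both groups carried Y-linked transcripts (at least 5147 counts over 4 genes, against 1 to 3 counts in the other libraries). Replicate 3 therefore held male cells, from an animal or animals not in replicates 1 and 2. Whether replicates 1 and 2 came from separate animals is not shown by these counts. The comparison was also made with replicates 1 and 2 alone, where 6 members passed the threshold, as with all libraries.

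All 9 receptors were expressed and passed the filter, with 95 counts (P2rx7, KO replicate 3) to 6899 counts (Cysltr1, control replicate 2). In the comparison of KO with control, 2 members (Ptger4 and Adora2a) passed the whole-table threshold as higher and 4 (Cysltr1, P2ry10, P2rx7 and Ptgir) as lower, and the same 6 genes were those whose libraries did not overlap between groups. The threshold was an edgeR adjusted p-value under 0.05. Of all 14268 tested genes, the share called higher was 23.2% and the share called lower 22.9%, or 46.1% in either direction. Every KO library lay above every control library in 29.9% of tested genes and below in 28.0%. Because the members were chosen with this contrast in view, nothing is read from their share. Their median log2 fold change was 0.019, beside 0.013 over all tested genes. Since the RNA came from whole cultures, fewer cells carrying a receptor and less receptor RNA per cell cannot be told apart.

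**Figure D1:**
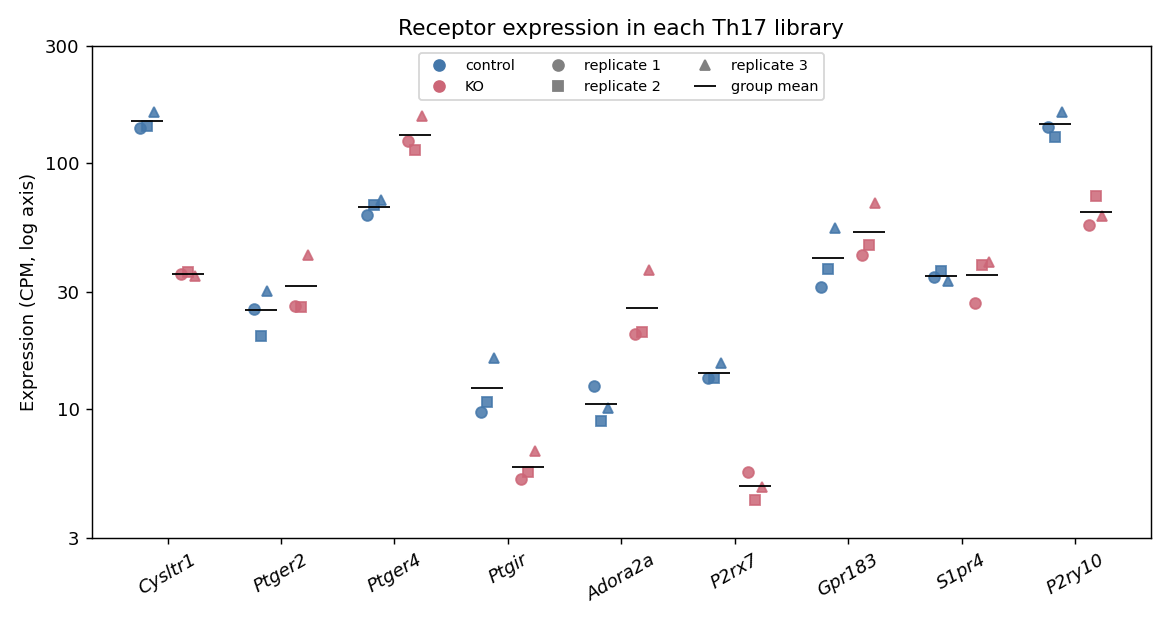
Expression of each receptor gene in CPM on a log axis, with 1 point per library (circle, square and triangle for replicates 1, 2 and 3; control blue, KO red) and a bar at each group mean. Cysltr1, Ptgir, P2rx7 and P2ry10 lie lower in all 3 KO libraries, Ptger4 and Adora2a lie higher, and Ptger2, Gpr183 and S1pr4 overlap.

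Cysltr1, the receptor for cysteinyl leukotrienes such as LTD4, differed most. Its gene lies on the minus strand of the X chromosome (GRCm38, chrX:106574346-106603679). In the order of replicates 1 to 3, control libraries measured 139, 142 and 162 CPM against 35.5, 36.2 and 34.7 CPM in KO libraries. The KO libraries were close together (35.5 ± 0.733, SD, n = 3) and all lay far below the control libraries (148 ± 12.4). The log2 fold change was −2.06 (SE 0.110), so KO held 24.0% of the control level, and its log2 fold change stood at the 2.004 percentile of tested genes. Among the other leukotriene receptors, the leukotriene B4 receptor Ltb4r1 also fell, from 30.1 ± 11.4 to 7.54 ± 1.33 CPM (SD, n = 3; log2 ratio of KO to control −1.996 with SE 0.273, adjusted p by edgeR = 0.000808). Cysltr2, the other receptor for cysteinyl leukotrienes, overlapped between groups at 34.9 ± 28.6 and 18.9 ± 2.18 CPM (SD, n = 3) and was not called (log2 ratio −0.89, edgeR adjusted p = 0.158). Its log2 ratio was −0.012 without control replicate 3, and it passed the threshold at −1.29 without control replicate 2. Ltb4r2, the low-affinity leukotriene B4 receptor, held 0.927 ± 0.287 and 0.424 ± 0.161 CPM and was not called either (−1.15, adjusted p by edgeR = 0.0630), though it was with the replicate block and without control replicate 2. Cysltr2 and Ltb4r2 were named after their values were seen.

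The prostaglandin receptors did not move together. Ptger4 (chr15:5206661-5244187, minus strand) had the highest CPM of them. Its levels in replicates 1 to 3 were 61.5, 67.8 and 70.8 CPM for control, against 123, 113 and 155 CPM for KO. The groups were apart, and the KO mean (130 ± 22.2 CPM, SD, n = 3) was 195% of the control mean (66.7 ± 4.74), and the log2 fold change was 0.96 (SE 0.140). Of the exonic bases of Ptger4, 16.5% overlap Ttc33 or the pseudogene Gm15937 on the opposite strand, and the strand setting of the counting is not given. Ttc33 itself held 23.0 ± 4.17 CPM in control and 29.98 ± 1.79 CPM in KO (SD, n = 3; log2 ratio of KO to control 0.38, adjusted p by edgeR = 0.0815). It passed the threshold with the replicate block and when libraries were scaled by size alone.

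Ptgir, the prostacyclin receptor (chr7:16906490-16910905, plus strand), moved the other way from Ptger4. Its 3 control libraries measured 9.73, 10.7 and 16.2 CPM, against 5.20, 5.58 and 6.76 CPM for the KO libraries, again in replicate order. Control replicate 3 was well above the other control libraries, and each KO library was below all of them. The means were 12.2 ± 3.47 and 5.85 ± 0.813 CPM (SD, n = 3). The log2 fold change was −1.07 (SE 0.241), with KO at 48.0% of control. Without control replicate 3 it was −0.87.

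Ptger2, the other prostaglandin E2 receptor among the members (chr14:44988195-45003820, plus strand), overlapped between groups. Its levels in replicate order were 25.6, 19.96 and 30.3 CPM for control, against 26.4, 26.1 and 42.4 CPM for KO. The means were 25.3 ± 5.19 and 31.7 ± 9.34 CPM (SD, n = 3). KO replicate 3 stood above every other library, and without it the log2 fold change of 0.32 (SE 0.229) shrank to 0.056. Ptger2 did not pass the threshold in any of the 14 alternative analyses.

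The balance within the prostaglandin receptors was compared within each library, which needs no scaling between libraries. Per kilobase of exon, Ptger4 exceeded Ptger2 by 1.88, 2.65 and 1.82 times in control replicates 1, 2 and 3 and by 3.63, 3.37 and 2.86 times in KO replicates 1, 2 and 3. The ratio was higher in each KO library than in each control library. Ptger4 exceeded Ptgir 2.85 ± 0.564 times in control and 11.2 ± 0.907 times in KO (SD, n = 3). With the longest transcript as the length the same ratio was 4.98 ± 0.986 in control and 19.5 ± 1.58 in KO. These ratios come from the same counts that the members were chosen on and carry no test.

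Adora2a, an adenosine receptor gene (chr10:75316877-75334784, plus strand), was the member with the largest positive fold change. The control libraries measured 12.4, 8.999 and 10.1 CPM, against 20.2, 20.6 and 36.8 CPM for the KO libraries. All KO libraries lay above all control libraries, with KO replicate 3 far above the other KO libraries. The means were 10.5 ± 1.73 and 25.9 ± 9.47 CPM (SD, n = 3), with 1.30 (SE 0.256) as log2 fold change. It was 0.96 without KO replicate 3 and 0.95 with replicates 1 and 2 alone.

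P2rx7, the ATP-gated channel (chr5:122643911-122691432, plus strand), had the smallest count of any member in a single library, while Ptgir had the lowest mean CPM. Replicates 1 to 3 measured 13.4, 13.4 and 15.5 CPM for control, against 5.54, 4.30 and 4.83 CPM for KO. The groups were well apart (14.1 ± 1.20 and 4.89 ± 0.624 CPM, SD, n = 3), with KO at 34.7% of control and a log2 fold change of −1.53 (SE 0.186). Its neighbour on chromosome 5, the related ATP-gated channel gene P2rx4, starts 16111 bases beyond it on the same strand (GRCm38) and went the other way. P2rx4, singled out after its values were seen, rose from 22.1 ± 3.60 to 58.7 ± 17.2 CPM (SD, n = 3; log2 ratio of KO to control 1.41 with SE 0.218, adjusted p by edgeR = 0.00138). Per kilobase of exon, Adora2a exceeded P2rx7 by 1.46 ± 0.297 times in control and 10.4 ± 3.99 times in KO (SD, n = 3).

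P2ry10, a receptor for lysophosphatidylserine, was lower in KO. The control libraries measured 141, 128 and 162 CPM, against 56.3, 73.6 and 60.9 CPM for KO. The groups did not overlap (144 ± 17.3 and 63.6 ± 8.95 CPM, SD, n = 3), and KO held 44.2% of the control mean (log2 fold change −1.18, SE 0.141). On the X chromosome P2ry10 (GRCm38, 107088492 to 107104974) is followed on the same strand by its near copy P2ry10b and by Gpr174, another lysophosphatidylserine receptor gene. Cysltr1 lies 484812 bases before it on the opposite strand. Gpr174 fell as well, from 40.5 ± 5.09 to 15.2 ± 0.123 CPM (SD, n = 3; log2 ratio of KO to control −1.41 with SE 0.139, adjusted p by edgeR = 0.000235). P2ry10b, between them and also named for its position, held 14.7 ± 0.729 and 12.3 ± 0.803 CPM (log2 ratio −0.25, edgeR adjusted p = 0.186). P2ry10 shares 3.79% of its 50-base stretches with P2ry10b.

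Gpr183 (EBI2), which guides cells along oxysterol gradients (chr14:121952551-121965195, minus strand), measured 31.4, 37.3 and 54.8 CPM for control, against 42.3, 46.4 and 69.1 CPM for KO, in replicate order. Replicate 3 was highest in both groups, and the groups overlapped (41.1 ± 12.2 and 52.6 ± 14.5 CPM, SD, n = 3). The log2 fold change of 0.35 (SE 0.243) did not pass the threshold, but did so with the replicate number as a block (0.36). In each pair of equal replicate number the KO library was higher, by 0.43, 0.32 and 0.34 on the log2 scale. The log2 fold change was 0.10 without KO replicate 3 and 0.13 without control replicate 1.

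S1pr4, a sphingosine 1-phosphate receptor of lymphocytes (chr10:81497747-81500132, minus strand), measured 34.5, 36.6 and 33.2 CPM for control, against 27.2, 38.7 and 39.8 CPM for KO. KO libraries lay on both sides of the control libraries, with means of 34.8 ± 1.71 (control) and 35.2 ± 7.002 CPM (KO; SD, n = 3). Its log2 fold change of 0.019 (SE 0.163) had no stable direction, turning negative in 6 of 14 alternatives, among them −0.11 with replicates 1 and 2 alone.

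**Figure D2:**
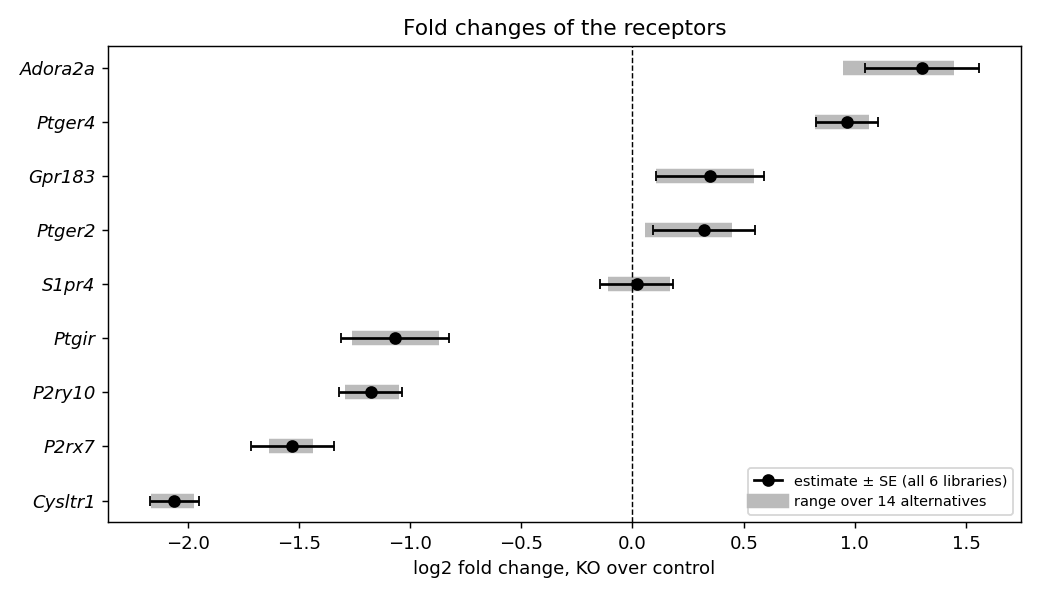
Log2 fold change (KO over control) of each receptor gene, with points and bars for the estimate ± SE from all 6 libraries and grey bands for the range over 14 alternative analyses. The bands of Cysltr1, P2rx7, P2ry10 and Ptgir stay below 0 and those of Adora2a, Ptger4, Gpr183 and Ptger2 above it, while that of S1pr4 crosses 0.

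Compared per exon length, P2ry10 led in control with 48.2 ± 5.79 CPM per kilobase, followed by Cysltr1 with 28.8 ± 2.40 (SD, n = 3), and these neighbours in the order did not overlap. S1pr4 (14.6 ± 0.716) and Gpr183 (14.2 ± 4.21) came next and overlapped with each other. Ptger4 (10.03 ± 0.713), Ptger2 (4.87 ± 0.999), Ptgir (3.66 ± 1.04), Adora2a (3.43 ± 0.566) and P2rx7 (2.36 ± 0.200) followed, of which Ptger2 and Ptgir, and Ptgir and Adora2a, overlapped. In KO the order was closer. P2ry10 (21.3 ± 3.001), Ptger4 (19.6 ± 3.34), Gpr183 (18.2 ± 5.01), S1pr4 (14.8 ± 2.94), Adora2a (8.45 ± 3.09), Cysltr1 (6.90 ± 0.143) and Ptger2 (6.10 ± 1.80) each overlapped with the next in the order. Ptgir (1.75 ± 0.244) and P2rx7 (0.819 ± 0.105) lay apart at the low end. Cysltr1 went from rank 2 to rank 6 and Ptger4 from rank 5 to rank 2. With the longest transcript as the length, Ptger4 reached 17.7 CPM per kilobase in control (rank 3) and 34.6 in KO (rank 1).

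**Figure D3:**
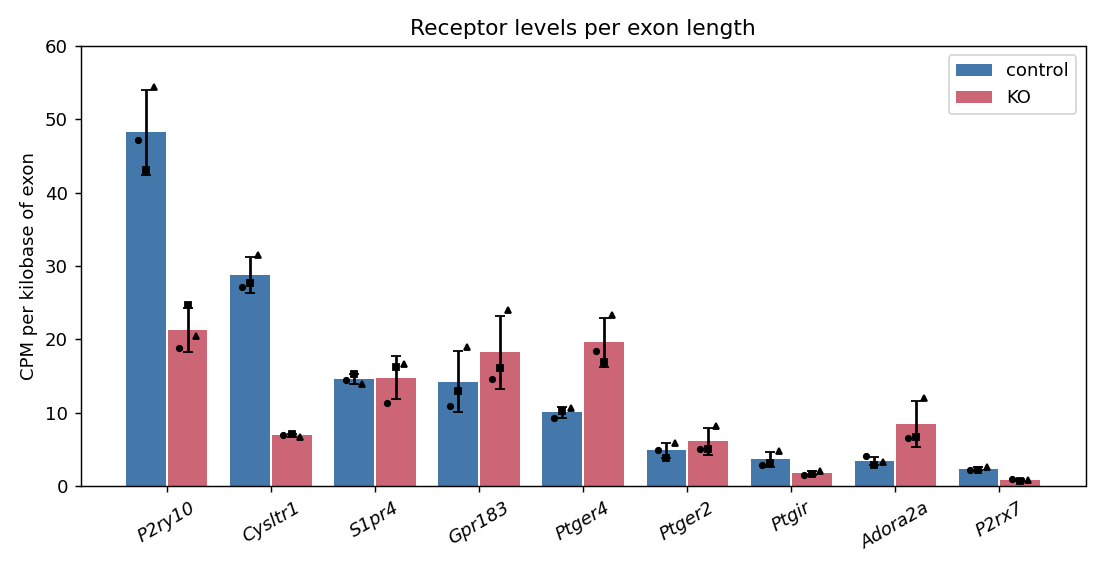
Level of each receptor gene in CPM per kilobase of exon, ordered by the control mean. Bars are means with SD over 3 libraries (control blue, KO red) and symbols are single libraries. P2ry10 and Cysltr1 stand above the rest in control, while in KO Ptger4 and Gpr183 are near P2ry10.

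Promoter windows were available for 7 members, but not for Cysltr1 or Adora2a, so the largest decrease and the largest increase are missing here. A link between base composition and direction was not tested. The upstream sequences of the other called members are shown, the lower P2ry10, P2rx7 and Ptgir and the higher Ptger4. Each is the 250 bases before the gene's first RefSeq start, read 5′ to 3′ on the gene's strand (GRCm38.p6): chrX:107088242-107088491 plus strand for P2ry10, chr5:122643677-122643926 plus strand for P2rx7, chr7:16906240-16906489 plus strand for Ptgir, and chr15:5244188-5244437 minus strand for Ptger4. Capitals mark matches on either strand to the searched motifs. These were the GC box GGGCGG, the AP-1 site TGANTCA, the core of the hypoxia response element ACGTG, the full cyclic AMP response element TGACGTCA, the first letters of that element TGACG, the E-box CACGTG, which contains the hypoxia core, and the TATA-box letters TATAAA.
P2ry10: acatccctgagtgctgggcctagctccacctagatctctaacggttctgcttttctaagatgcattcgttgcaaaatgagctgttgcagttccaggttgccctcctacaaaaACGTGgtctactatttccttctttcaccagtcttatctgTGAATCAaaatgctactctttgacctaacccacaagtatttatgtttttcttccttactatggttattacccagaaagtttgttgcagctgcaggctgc
P2rx7: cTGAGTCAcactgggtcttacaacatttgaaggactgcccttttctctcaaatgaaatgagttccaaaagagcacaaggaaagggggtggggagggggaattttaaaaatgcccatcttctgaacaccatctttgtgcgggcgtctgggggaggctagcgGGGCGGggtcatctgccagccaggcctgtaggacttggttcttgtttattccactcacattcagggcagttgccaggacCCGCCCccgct
Ptgir: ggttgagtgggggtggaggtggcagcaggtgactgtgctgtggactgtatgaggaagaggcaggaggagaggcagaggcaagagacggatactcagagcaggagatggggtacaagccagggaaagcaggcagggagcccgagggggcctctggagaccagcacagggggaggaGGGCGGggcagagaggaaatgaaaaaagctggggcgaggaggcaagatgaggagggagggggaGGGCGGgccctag
Ptger4: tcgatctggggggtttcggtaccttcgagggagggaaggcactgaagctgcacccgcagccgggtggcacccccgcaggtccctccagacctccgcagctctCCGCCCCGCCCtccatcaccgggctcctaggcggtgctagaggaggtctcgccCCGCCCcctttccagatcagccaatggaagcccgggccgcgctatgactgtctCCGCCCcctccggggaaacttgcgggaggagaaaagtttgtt

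Windows of 300 bases, which add 50 bases after the start, were searched for 7 members (9 windows, since P2rx7 and P2ry10 have a second start). The Ptger4 window held 67.0% G and C and 4 GC boxes, some overlapping, and the Ptgir window held 62.0% and 2 GC boxes. The first P2rx7 window held 53.3%, with 2 GC boxes and 1 AP-1 match, and the first P2ry10 window held 42.3%, with 1 AP-1 match and 1 ACGTG and no GC box. The windows of Gpr183 (35.3%), Ptger2 (37.7%) and S1pr4 (41.0%) held no GC box either. GC boxes stood in 35.7%, AP-1 matches in 7.81% and ACGTG in 19.6% of all 32851 windows. TGACGTCA stood in 1.79% of all windows and in none of the members'. TGACG (20.8% of all) stood once, in the second P2ry10 window. CACGTG (7.15% of all) and TATAAA (13.6% of all) stood in no member window. These matches describe letters only.

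Genes around the receptors were described from lists written for the ligands, the other receptors and the signal relay, with earlier results of these data known. Together they held 119 tested genes, of which 31 were called higher and 26 lower in KO, with a median log2 fold change of −0.033. Each count is read beside the 23.2% and 22.9% of all tested genes.

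**Figure D4:**
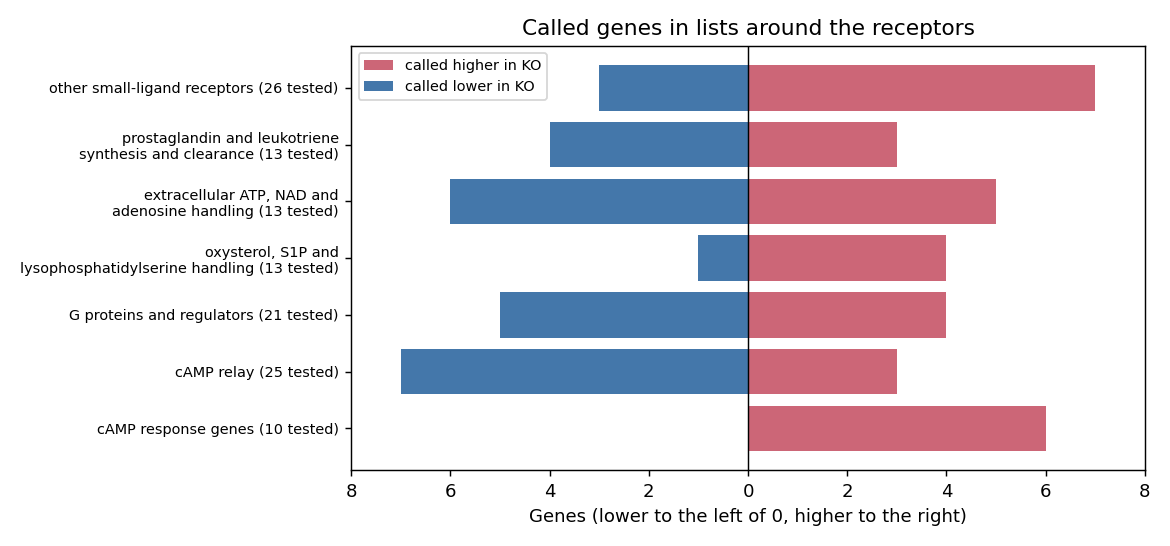
Number of genes called higher (red, right) and lower (blue, left) in KO in each list around the receptors, with the number of tested genes in brackets. The cAMP response genes had 6 called higher and 0 lower, and the other lists had calls in both directions.

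Of 43 other receptors for related ligands, 26 passed the filter, 7 were called higher and 3 lower, and their median log2 fold change was 0.20. P2ry14, a receptor for UDP-glucose, rose from 1.38 ± 0.745 to 18.1 ± 4.30 CPM (SD, n = 3; log2 ratio of KO to control 3.68 with SE 0.375, adjusted p by edgeR = 0.000251). Gpr55, a lysophosphatidylinositol receptor, rose from 7.73 ± 1.85 to 54.7 ± 3.28 CPM (log2 ratio 2.83, edgeR adjusted p = 6.78e-05). S1pr3 rose from 19.7 ± 2.50 to 58.2 ± 5.06 CPM (1.56, adjusted p = 0.000163), while S1pr4 overlapped between groups. S1pr1 was also called higher, from 34.9 ± 12.7 to 58.0 ± 6.11 CPM (0.73, adjusted p = 0.0294), and S1pr2 was not called (0.31, adjusted p = 0.170). S1pr1 and S1pr2 were named after their values were seen. The lysophosphatidic acid receptor Lpar5 fell from 8.05 ± 1.03 to 4.07 ± 0.357 CPM (−0.98, adjusted p = 0.0062), and with Ltb4r1 and Gpr174 made up the 3 lower calls. The proton sensor Gpr65, the most counted of the list, held 105 ± 12.3 and 114 ± 17.2 CPM and was not called (adjusted p = 0.529). The lower calls numbered 5 with the replicate block and 7 without control replicate 2.

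Genes that make or clear prostaglandins and leukotrienes changed in both directions, with 3 of 13 tested called higher, 4 lower and a median of −0.19. Ptges3, a cytosolic prostaglandin E synthase and chaperone partner, fell from 341 ± 41.7 to 236 ± 20.5 CPM (SD, n = 3; log2 ratio of KO to control −0.53, adjusted p by edgeR = 0.0114), a call lost without KO replicate 3. Abcc1, which exports leukotriene C4, fell from 158 ± 22.7 to 66.3 ± 15.2 CPM (−1.25, adjusted p = 0.00117). Ptgr1, a reductase that inactivates prostaglandins and leukotriene B4, fell from 9.58 ± 3.44 to 4.70 ± 0.866 CPM (−1.03, adjusted p = 0.0199), a call lost without control replicate 2, KO replicate 2 or KO replicate 3. The 3 higher calls, all under the 5 CPM of the naming rule and named after their values were seen, were Ptgs2, Hpgds and Tbxas1. Ptgs2, the inducible cyclooxygenase, rose from 0.382 ± 0.144 to 2.81 ± 0.690 CPM (2.95, adjusted p = 0.000797), a call kept in all 14 alternatives. Hpgds, a prostaglandin D synthase, was called higher (0.95, adjusted p = 0.0305), a call lost without control replicate 1, control replicate 2, KO replicate 2 or KO replicate 3. Tbxas1, the thromboxane synthase, was called higher (1.91, adjusted p = 0.0374), a call lost without control replicate 1, control replicate 2, KO replicate 1 or KO replicate 3 and with replicates 1 and 2 alone. The higher calls dropped to 1 without control replicate 1, control replicate 2 or KO replicate 3. The lower calls dropped to 2 without control replicate 2 or KO replicate 2 and to 1 without KO replicate 3.

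Among 13 tested genes that handle extracellular ATP, NAD and adenosine, the ligands of P2rx7 and Adora2a, 5 were called higher and 6 lower, and the median was −0.64. Nt5e (CD73), which forms adenosine from AMP, rose from 41.2 ± 19.5 to 136 ± 66.7 CPM (SD, n = 3; log2 ratio of KO to control 1.73 with SE 0.461, adjusted p by edgeR = 0.0145), a call lost without KO replicate 2. Ada, which degrades adenosine, fell from 11.1 ± 2.27 to 3.88 ± 0.694 CPM (−1.51, adjusted p = 0.00155). Dpp4 (CD26), also in this list, fell from 39.3 ± 20.2 to 13.3 ± 3.04 CPM (−1.57, adjusted p = 0.00577). Enpp1, which hydrolyses extracellular ATP, fell from 17.5 ± 7.43 to 6.10 ± 0.993 CPM (−1.53, adjusted p = 0.00404). Cd38, which consumes extracellular NAD, rose from 5.05 ± 2.59 to 16.2 ± 3.51 CPM (1.70, adjusted p = 0.00875). The sheddases Adam10 (0.41, adjusted p = 0.014) and Adam17 (0.44, adjusted p = 0.0114) were called higher. Their calls were lost without control replicate 1 or control replicate 3, that of Adam10 also without KO replicate 2, and that of Adam17 also without KO replicate 3 and with replicates 1 and 2 alone. The higher calls of this list numbered 2 without control replicate 1, control replicate 3 or KO replicate 2, and 3 without KO replicate 3 or with replicates 1 and 2 alone.

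In the list for oxysterols, sphingosine 1-phosphate and lysophosphatidylserine, 4 of 13 tested genes were called higher and 1 lower, with a median of 0.42. The oxysterol enzymes Ch25h, Cyp7b1 and Cyp27a1, which make or modify the ligand of Gpr183, did not pass the filter. Sphk1, a kinase that makes sphingosine 1-phosphate, rose from 3.28 ± 1.15 to 58.0 ± 13.2 CPM (SD, n = 3; log2 ratio of KO to control 4.18 with SE 0.290, adjusted p by edgeR = 6.78e-05). Sgpl1, the lyase that destroys it, rose from 73.6 ± 12.1 to 155 ± 19.9 CPM (1.08, adjusted p = 0.000871). The related kinase gene Sphk2 was called higher (0.42, adjusted p = 0.0259), a call lost in 7 of 14 alternatives, including those without any of the control replicates, without KO replicate 2 and without KO replicate 3. Plpp2, a lipid phosphatase, fell from 11.7 ± 3.95 to 1.79 ± 0.745 CPM (−2.74, adjusted p = 0.000688).

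Of 21 tested genes for G proteins and their regulators, 4 were called higher and 5 lower, with a median of −0.15. Gnas, the stimulatory α subunit used by the prostaglandin E2 receptors and Adora2a, rose from 9.55 ± 1.76 to 16.3 ± 1.02 CPM (SD, n = 3; log2 ratio of KO to control 0.78, adjusted p by edgeR = 0.00741), and Gnaq, an α subunit through which the Cysltr1 product signals, rose from 12.3 ± 1.97 to 23.4 ± 1.61 CPM (0.92, adjusted p = 0.00238). Gnai2, the most counted, held 531 ± 52.5 and 631 ± 44.7 CPM and was not called (adjusted p = 0.141), but was when libraries were scaled by size alone. Arrb1, β-arrestin 1, which desensitises receptors, fell from 235 ± 82.4 to 33.9 ± 1.56 CPM (−2.79, SE 0.231, adjusted p = 0.000122). The receptor kinase Grk6 fell from 135 ± 8.28 to 77.1 ± 2.41 CPM (−0.80, adjusted p = 0.000616). Rgs1 fell from 538 ± 17.6 to 219 ± 59.7 CPM (−1.29, adjusted p = 0.0012) while Rgs2 rose from 36.1 ± 2.80 to 78.0 ± 16.1 CPM (1.11, adjusted p = 0.00101). Both encode proteins that shorten G protein signals. The higher calls numbered 7 when libraries were scaled by size alone.

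The cyclic AMP relay held 25 tested genes, with 3 called higher, 7 lower and a median of −0.15. Prkar1a, a regulatory subunit of protein kinase A, rose from 444 ± 30.3 to 815 ± 87.7 CPM (SD, n = 3; log2 ratio of KO to control 0.88, adjusted p by edgeR = 0.00118), and Prkar2a, another, fell from 74.0 ± 10.5 to 43.6 ± 7.51 CPM (−0.76, adjusted p = 0.00513). Of the adenylyl cyclases, which make cyclic AMP, Adcy7 rose from 84.2 ± 10.4 to 119 ± 7.64 CPM (0.50, adjusted p = 0.0102), Adcy3 fell (−0.59, adjusted p = 0.00722) and Adcy6 fell (−0.93, adjusted p = 0.0121), the last a call lost without KO replicate 2. Crtc2, a coactivator of CREB, rose from 46.4 ± 3.44 to 67.6 ± 6.85 CPM (0.54, adjusted p = 0.00682). Without KO replicate 2 the lower calls numbered 3.

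Of 10 genes known to respond to cyclic AMP, all tested, 6 were called higher and 0 lower, with a median of 1.07 beside 0.013 over all genes. Rgs2, among these higher calls, is also counted in the list of G proteins and their regulators. Only Pde4b had a negative log2 fold change in the main fit. The 0 genes lower at an unadjusted edgeR p under 0.05 therefore add no separate support. DESeq2, on the same counts, also called 0 genes lower. Over all tested genes 23.2% were called higher and 22.9% lower. The list was written with earlier results of these data known, so these counts are a description and support nothing further. Nr4a2 rose from 14.2 ± 5.15 to 125 ± 32.8 CPM (SD, n = 3; log2 ratio of KO to control 3.16 with SE 0.286, adjusted p by edgeR = 0.000163). Nr4a1 rose from 115 ± 49.5 to 326 ± 47.3 CPM (1.499, adjusted p = 0.00457) and Sik1, a CREB-induced kinase, from 25.8 ± 5.10 to 63.4 ± 14.1 CPM (1.30, adjusted p = 0.00157). These genes also respond to T cell receptor signals, so the list is not specific to the receptors described here. The member of the list with a negative log2 fold change was Pde4b, named after its values were seen, which degrades cyclic AMP and also stands in the relay list. It held 125 ± 66.6 and 116 ± 16.3 CPM (SD, n = 3; edgeR adjusted p = 0.792), and its log2 fold change of −0.11 turned positive with the replicate block, with replicates 1 and 2 alone and without control replicate 3 (0.36).

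For each member the genes with the most similar pattern over the 6 libraries were taken by Pearson correlation of log2 CPM among 9432 genes. With few libraries and a difference between groups, such correlations are high for many genes, and they are given as a description. Cysltr1 was most like Dennd2d (r = 0.99995) and Rundc3b (0.999), P2rx7 like Reep1 (0.999) and Dym (0.999), P2ry10 like Ppm1m (0.999) and Soat2 (0.999), and Ptgir like Trp53i11 (0.999) and Cdk5rap3 (0.997). Ptger4 was most like Tnfsf4 (0.997) and Tap2 (0.996), and Adora2a like Tmem104 (0.997) and Sertad2 (0.993). Ptger2 was most like Ube2w (0.990) and Slc35c1 (0.984), Gpr183 like Ggta1 (0.993) and Atf6 (0.990), and S1pr4 like Arl3 (0.911) and Derl1 (0.903). Among the members themselves, the highest correlation was that of Cysltr1 with P2rx7 (0.989) and the lowest that of Cysltr1 with Ptger4 (−0.950). Ptger2 and Gpr183, both highest in replicate 3 of each group, correlated at 0.838.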

How the data were processed

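Total RNA of 3 control and 3 KO Th17 samples was sequenced, and the authors deposited 1 table of raw read counts per gene. The submitters' processing notes name STAR, featureCounts, DESeq2 and mm10. The annotation and strand setting are not given in the sources used here. The members and lists were chosen with earlier results of these data known. From the counts, edgeR 4.0.16 (R 4.3.3) fitted all 6 libraries with filterByExpr, TMM scaling and the quasi-likelihood test, with Benjamini-Hochberg adjustment over 14268 genes and a threshold of 0.05. Fold changes are KO over control. CPM uses TMM library sizes, and levels per kilobase use the union of exons in GENCODE for GRCm38. Promoter windows are from RefSeq (GRCm38.p6). The common biological coefficient of variation was 0.212. The depth in replicate order was 16489813, 51271226 and 43536889 counts for control, against 25611029, 35907999 and 19304121 counts for KO. The test was checked on simulated counts.

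Named besides the 9 members were Rtf1, the most counted gene of each list, up to 3 called genes per direction with a mean of at least 5 CPM and no overlap between groups, and the 2 genes most correlated with each member. Outside this rule, P2rx4, P2ry10b, Ttc33, Pde4b, Cysltr2, Ltb4r2, S1pr1, S1pr2, Ptgs2, Hpgds and Tbxas1 were named for their position, their relation to a member or a count they make up. Marker genes are named with their sums. Deviations from the group mean correlated at 0.270, 0.130 and 0.379 between same-numbered libraries. Each KO library correlated most with the control library of its own number. Control replicate 2, however, correlated more with KO replicate 1 (0.204) than with KO replicate 2. Replicate 3 held male cells in both groups, so that number marks a shared trait. For replicates 1 and 2 pairing by number was not established. The main fit left the number out, and the replicate block was an alternative. The labels do not say what the number marks. Alternatives were DESeq2 1.42.0 and its size factors, upper-quartile scaling, library size alone, no filter, a mean count of at least 10, the replicate block, leaving out each library, and replicates 1 and 2 alone.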

Additional observations from a re-analysis of the deposited data

How the results depend on the processing

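Ptger4, Adora2a, Cysltr1, P2ry10, P2rx7 and Ptgir kept their direction and call in all 14 alternatives. With the replicate block Gpr183 was called as well (log2 fold change 0.36), and the block changed no other member's call. The log2 fold change of S1pr4 reversed with the DESeq2 Wald test (−0.0037) and with replicates 1 and 2 alone (−0.11), and ranged from −0.076 to 0.17 when single libraries were left out. Its cause was not tested. The number of genes called lower, 3269, was 2170 without KO replicate 2 and ranged from 2170 to 3700 over the analyses without 1 library, and genes called in either direction ranged from 4460 to 7628 over all alternatives, the latter with the block. When libraries were scaled by size alone the median of all genes moved to 0.10, with 3809 called higher and 2799 lower. Of the 37 list genes named by the rule, 29 kept their call in all alternatives and 0 reversed. The log2 fold change of Pde4b reversed with the replicate block (0.0063) and with replicates 1 and 2 alone (0.33), and ranged from −0.37 to 0.36 when single libraries were left out. Ptgir and P2rx7, with the fewest counts of the members, have the largest counting error. The SE of the log2 fold change, which also holds the spread between libraries, was largest for Adora2a (0.256). It was 0.243 for Gpr183, 0.241 for Ptgir and 0.186 for P2rx7.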
